A study of Mus musculus with 28 samples.

Results

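Multipotent progenitors of the type MPP3 were compared between Dnmt3a-mutant and control grafts in young recipient mice, with 3 mutant and 4 control libraries out of the 28 RNA-seq libraries of the series. The libraries were chosen by their labelled genotype, cell type and recipient age, and no measured value entered the choice. In both groups the marrow came from young donors and was given to young CD45.1 recipients, and the MPP3 were taken back from recipient bone marrow 4 months later. The strain label was C57BL/6 in all 7 libraries. Control marrow carried Mx1-Cre, a recombinase transgene under an interferon-inducible promoter. Mutant marrow was labelled Dnmt3a-mutant (D3aMut), and neither the allele nor whether it also carried Mx1-Cre was given in the sources used here. The titles give each of the 7 libraries 1 recipient of its own, but not how many donors stood behind them. The p-values below therefore cannot be read as measuring the spread between donors. For comparison the text uses a pair of further sets that share no library with these 7, namely MPP3 of aged recipients (4 mutant, 4 control) and long-term haematopoietic stem cells (LT-HSC) of young recipients (2 mutant, 4 control). All 6 LT-HSC libraries came from recipients that also gave 6 of the 7 MPP3 libraries, by the recipient numbers in the titles, so the LT-HSC set holds no new animals. Of the 8 aged MPP3 libraries, 5 pooled a pair of recipients (all 4 mutants and 1 control). Young and aged MPP3 were fitted together, with a shared estimate of each gene's spread. The genotype p-values for young MPP3 therefore rest on the spread of single recipients and of these aged pairs. Fits of the 7 libraries alone are named as such.

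DNMT3A is a de novo DNA methyltransferase that adds methyl groups to cytosine in CG pairs, and its loss or mutation in blood stem cells is the most common lesion of clonal haematopoiesis. MPP3 are short-lived progenitors downstream of stem cells that are biased towards granulocytes and monocytes and keep some lymphoid potential. The series title concerns receptors of tumour necrosis factor (TNF) in clonal haematopoiesis of ageing, so the TNF pathway was among the gene lists examined.

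The promoters of 4 genes described below are shown first, because DNMT3A acts on CG pairs and these genes differ widely in CG content. Kit and Lhfpl2 were among the lower genes with the smallest p, Ccr2 had the smallest p among the lower myeloid genes, and Cd79a was among the higher genes with the smallest p. The sequences are the RefSeq windows from 250 bases before to 50 bases after the transcription start (build GRCm38.p6), read in the direction of the gene, with every CG in capitals. The windows lie at chr5:75574737-75575036 (plus strand, Kit), chr13:94057546-94057845 (plus strand, Lhfpl2), chr9:124101933-124102232 (plus strand, Ccr2) and chr7:24897247-24897546 (plus strand, Cd79a).
Kit: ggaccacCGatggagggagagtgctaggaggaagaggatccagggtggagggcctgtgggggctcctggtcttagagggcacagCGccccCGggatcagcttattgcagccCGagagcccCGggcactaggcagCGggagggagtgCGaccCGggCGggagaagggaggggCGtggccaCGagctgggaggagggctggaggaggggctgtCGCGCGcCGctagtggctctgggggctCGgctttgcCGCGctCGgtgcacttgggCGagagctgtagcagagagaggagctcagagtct
Lhfpl2: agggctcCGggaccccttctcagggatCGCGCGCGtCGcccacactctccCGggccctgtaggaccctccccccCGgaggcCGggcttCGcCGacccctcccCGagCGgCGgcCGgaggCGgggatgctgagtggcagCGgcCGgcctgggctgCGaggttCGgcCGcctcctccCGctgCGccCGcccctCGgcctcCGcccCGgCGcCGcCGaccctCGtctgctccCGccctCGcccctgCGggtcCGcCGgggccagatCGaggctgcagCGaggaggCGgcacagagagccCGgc
Ccr2: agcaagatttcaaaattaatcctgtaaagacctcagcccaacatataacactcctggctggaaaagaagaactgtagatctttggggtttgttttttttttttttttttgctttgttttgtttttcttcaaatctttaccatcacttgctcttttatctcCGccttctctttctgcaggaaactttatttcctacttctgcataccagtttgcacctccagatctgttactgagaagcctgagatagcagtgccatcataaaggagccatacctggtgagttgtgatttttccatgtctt
Cd79a: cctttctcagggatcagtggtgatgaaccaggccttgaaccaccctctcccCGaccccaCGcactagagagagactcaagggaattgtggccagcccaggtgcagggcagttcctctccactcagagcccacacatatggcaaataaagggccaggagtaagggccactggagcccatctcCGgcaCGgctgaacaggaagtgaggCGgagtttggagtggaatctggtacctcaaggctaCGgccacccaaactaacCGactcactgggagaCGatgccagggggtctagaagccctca
The windows hold 20 CG in Kit, 40 in Lhfpl2, 1 in Ccr2 and 8 in Cd79a. CG reads the same on both strands, and 94.22% of all 27025 windows of this length hold at least 1. Of the 13933 genes tested, 9995 had a window, with a median of 20 CG and quartiles of 12 and 28. The 10 leading higher genes named below had windows for 7 and a median of 18 CG (range 8 to 34), and the 10 leading lower genes had windows for 9 and a median of 23 (range 2 to 44). Methylation was not measured, so these counts describe the sequence only.

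The 7 libraries held 6298805 to 9179897 counts, and levels are given in CPM, each count divided by the total of its library and scaled between libraries by TMM, the trimmed mean of log ratios. Pearson correlations of log2 values were 0.739 to 0.808 between control libraries, 0.778 to 0.809 between mutant libraries and 0.750 to 0.831 between the groups, so libraries of different genotype resembled each other as much as those of one genotype. On the first 2 principal components control replicate 1 and control replicate 3 stood farthest from the rest. Mutant replicate 1 differed in 2 shares: mitochondrial genes took 14.1% of its counts against 21.98 to 27.8% in the other 6, and immunoglobulin genes took 5.46% against 0.205 to 2.38%. By the library numbers in the column names, mutant replicate 1 was also the only one of the 7 in the first of 2 sequencing pools, a pool being inferred from those names alone. Pool, immunoglobulin share and that 1 library therefore cannot be told apart, and results are given without it where they move.

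No gene passed the threshold between mutant and control MPP3 of young recipients. Of 13933 genes tested, 0 had an adjusted p under 0.05 by the quasi-likelihood test of edgeR, adjusted after Benjamini and Hochberg (0% called), and the smallest adjusted p was 0.172. At an unadjusted p under 0.05 there were 846 genes (6.07%), 422 higher in mutants (3.03%) and 424 lower (3.04%). The CPM of 703 genes (5.05%) did not overlap between the groups, 372 being higher (2.67%) and 331 lower (2.38%) in mutants. DESeq2's Wald test called 54 genes on the same counts (0.388%), 18 higher and 36 lower. In 25 of those 54 every library of 1 group was at 0, and in 16 a single library held over 90% of the summed CPM. The biological coefficient of variation, the typical spread of a gene between libraries of one group, was 0.882. All single genes below are therefore given as values, and the words higher and lower carry no call.

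Dnmt3a, the mutated gene, was measured at 234, 131, 47.2 and 144 CPM in control replicates 1 to 4 and at 95.2, 103 and 73.8 CPM in mutant replicates 1 to 3. The mutant values lay inside the range seen in controls. The estimated log2 change of Dnmt3a was -0.62 with an SE of 0.41 (adjusted p = 0.911 in edgeR). Gene totals do not show which allele was transcribed, so the level checks the label only for a loss of transcript, and none was shown.

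A list of 10 genes whose proteins are used to sort blood progenitors (the sort list) was checked against the label, together with Mpo. The list is not limited to markers that define MPP3. Mpo, the myeloperoxidase of granulocyte precursors and a leading transcript of myeloid-biased progenitors, stood at 20697, 13368, 16140 and 20117 CPM in controls and at 17148, 23336 and 17785 CPM in mutants, with overlapping groups (log2 change 0.14, SE 0.42). Cd34 (87.9 to 232 CPM) and Cd48 (19.9 to 79.9 CPM) were present in all 7 libraries. Flt3 RNA was present in all 7 too (53.1 to 155 CPM), which was not taken as a sign of the MPP3 label. Only RNA was measured, so the surface protein that a sort reads was not checked. Slamf1, which encodes the CD150 that MPP3 lack on the surface, was at 0 in 4 of the 7 libraries and reached 11.4 CPM in control replicate 4. Ly6a, which encodes Sca-1, was low, at 0.481 to 31.8 CPM in 6 libraries, and stood at 153 CPM in mutant replicate 1. Ly6a had a log2 change of 2.40 with an SE of 1.31 (adjusted p = 0.867 in edgeR), and without mutant replicate 1 it was 0.15.

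Kit had the smallest unadjusted p of the sort list, though not the largest log2 change. It encodes the receptor for stem cell factor, which progenitors need for survival and growth. Kit stood at 467, 397, 348 and 293 CPM in control replicates 1 to 4 and at 169, 202 and 232 CPM in mutant replicates 1 to 3. Every mutant library lay below every control library. The means were 376 ± 74.0 CPM (SD, n = 4) and 201 ± 31.2 CPM (SD, n = 3). The log2 change was -0.90 (SE 0.25, unadjusted p = 0.00174, edgeR adjusted p = 0.793). It was -0.79 without mutant replicate 1. The second pool holds the same young libraries as that fit, so its estimate, also -0.79, is not a separate check. In MPP3 of aged recipients Kit did not separate by genotype, with 416, 359.8, 417 and 313 CPM in controls and 314, 493, 322 and 367 CPM in mutants (log2 change -0.01, SE 0.22). The difference between the 2 ages was 0.89 on the log2 scale (SE 0.33, unadjusted p = 0.0145, edgeR adjusted p = 0.891). In LT-HSC of young recipients the log2 change of Kit was -0.20 (SE 0.30).

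Fcgr2b, an inhibitory receptor for immunoglobulin G, was the sort-list gene that was higher without overlap. It stood at 12.6, 28.4, 8.41 and 25.9 CPM in controls and at 46.6, 58.5 and 40.9 CPM in mutants (log2 change 1.37, SE 0.69, edgeR adjusted p = 0.844). Fcgr3, whose product is read by the same antibodies in many sorts, overlapped between the groups (log2 change 0.13, SE 0.72). Ptprc, the pan-leukocyte CD45, was at 181, 212, 268 and 195 CPM in controls and 418, 291 and 207 CPM in mutants (log2 change 0.51, SE 0.28). Il7r, a lymphoid cytokine receptor, had a log2 change of 0.86 (SE 0.91) that became -0.09 without mutant replicate 1. The changes of Cd34, Cd48, Flt3 and Slamf1 were -0.44, -0.09, -0.21 and -2.90 (SE 0.46, 0.53, 0.45 and 2.49), and all 4 overlapped between the groups. Of the 10 sort genes 5 were higher and 5 lower, and Kit was the 1 with an unadjusted p under 0.05.

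Among genes with a mean of at least 10 CPM and no overlap between the groups, the 10 higher and 10 lower genes with the smallest p are described next, leaving out predicted gene models and pseudogenes by their symbols. That exclusion took 1 gene out of these ranks, Gm47283, which had the smallest p of the lower genes and is described below with its neighbours. Stk24, a serine/threonine kinase of the MST family, led the higher genes. It was at 85.3, 153, 119 and 137 CPM in controls and at 523, 322 and 367 CPM in mutants. The lowest mutant library was above the highest control by more than the whole range of the controls. The means were 124 ± 29.0 CPM (SD, n = 4) and 404 ± 106 CPM (SD, n = 3). The log2 change was 1.71 (SE 0.30, unadjusted p = 2.18e-05, edgeR adjusted p = 0.172, DESeq2 adjusted p = 0.000135). Without mutant replicate 1 the log2 change was 1.48 (unadjusted p = 0.000307). In aged recipients the log2 change was -0.33 (SE 0.28), a difference from young recipients of -2.03 (SE 0.41, unadjusted p = 0.000103, edgeR adjusted p = 0.861). In LT-HSC of young recipients it was -0.77 (SE 0.40), and the change in MPP3 exceeded it by 2.48 (SE 0.54, unadjusted p = 0.000295, edgeR adjusted p = 0.626). The 4 aged control MPP3 libraries held 149 to 259 CPM of Stk24 and the 4 aged mutant libraries 111 to 216 CPM, so the level in young mutants was above all of them.

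Rabggta, the alpha subunit of the enzyme that attaches geranylgeranyl lipid to Rab proteins, was at 10.1, 7.22, 12.8 and 11.4 CPM in controls and at 103, 44.7 and 48.3 CPM in mutants. All 3 mutant libraries exceeded the controls, mutant replicate 1 the most (log2 change 2.65, SE 0.67, edgeR adjusted p = 0.793). Cdc42se2, a small effector of the GTPase Cdc42, was at 10.4, 35.9, 21.4 and 21.2 CPM in controls and at 203, 63.5 and 48.04 CPM in mutants (log2 change 2.24, SE 0.57). Without mutant replicate 1 it was 1.33. Atp1b3, a beta subunit of the sodium-potassium pump, was at 42.2, 71.6, 73.2 and 49.4 CPM in controls and at 199, 144 and 152 CPM in mutants (log2 change 1.48, SE 0.43). It was the leading higher gene, beside Cd79a, that also had, in aged mutants, an unadjusted p below 0.05 in the same direction (log2 change 0.87, unadjusted p = 0.0434). Dctn4, a dynactin subunit, had a log2 change of 1.52 (SE 0.39), and its groups were nearest at 81.5 CPM in control replicate 4 and 94.7 CPM in mutant replicate 3. Ppp1r2, an inhibitor of protein phosphatase 1, had a log2 change of 1.78 (SE 0.51). Fam32a (log2 change 2.24, SE 0.64) and the kinetochore gene Cenpt (3.40, SE 1.0) were highest in mutant replicate 2, Cenpt at 91.3 CPM there against 9.96 and 13.2 CPM in the other mutants. Without mutant replicate 2 their changes were 1.39 and 1.69. Without mutant replicate 1 the log2 changes of the 10 genes lay between 1.32 (Atp1b3) and 3.86 (Cenpt), apart from Cd79a, which went from 2.25 to 0.78, and Ighv9-3.

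Ighv9-3, an immunoglobulin heavy-chain variable segment, was at 0 in all 4 controls and at 333, 54.4 and 6.86 CPM in mutants. Against a floor of 3 counts over the control group it was at least 1221-fold higher, with an edgeR adjusted p of 0.180. Such segments have close paralogs and each B-lineage clone carries its own, so counts may be split between copies and a value can come from few cells. The other immunoglobulin and B-lineage genes are described with the lymphoid genes.

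Among the lower genes Lhfpl2, a tetraspan membrane protein, stood at 81.3, 112, 22.1 and 18.1 CPM in controls and at 4.21, 1.57 and 6.86 CPM in mutants. No mutant library reached 7 CPM and no control was under 18 CPM (log2 change -3.79, SE 0.79, unadjusted p = 0.000137, edgeR adjusted p = 0.382). Fnip2, which binds folliculin in the control of energy and growth signals, stood at 93.3, 55.6, 31.6 and 79.0 CPM in controls and at 18.6, 15.5 and 7.88 CPM in mutants. The groups did not overlap (log2 change -2.21, SE 0.51, edgeR adjusted p = 0.774). Mob3a, a kinase adaptor, was at 67.3, 119.5, 48.1 and 36.0 CPM in controls and at 5.87, 16.3 and 9.28 CPM in mutants (log2 change -2.69, SE 0.70). Vkorc1, the enzyme that recycles vitamin K, was at 75.4, 27.1, 63.5 and 13.1 CPM against 3.83, 7.13 and 3.43 CPM (log2 change -3.22, SE 0.84). Lime1, an adaptor of antigen-receptor signalling, was at 21.6, 42.8, 58.2 and 9.47 CPM against 0.128, 3.02 and 1.14 CPM (log2 change -4.51, SE 1.16).

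Fam129b, Tprgl and Zfp385a were highest in control replicate 3. Fam129b, an adherens-junction protein, reached 101 CPM in control replicate 3 against 3.41 to 17.1 CPM in the other controls and 0.383 to 0.635 CPM in mutants (log2 change -5.92, SE 1.30). Without that library it was -3.95. Tprgl stood at 129 CPM in control replicate 3 against 23.3 to 33.1 CPM in the other controls and 5.20 to 12.96 CPM in mutants (log2 change -2.46, SE 0.68). Zfp385a, a zinc-finger protein, was highest in the same library at 84.3 CPM (log2 change -2.82, SE 0.78). Zcchc9 was at 17.9 to 65.8 CPM in controls and 6.35 to 14.3 CPM in mutants (log2 change -2.08, SE 0.56). DESeq2 called 9 of these 10 lower genes, all but Kit, and 4 of the 10 higher genes. Over all genes it called 54 of 13933 (0.388%). The leading genes were picked by p from the same counts, so these numbers follow in part from the choice.

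**Figure D1:**
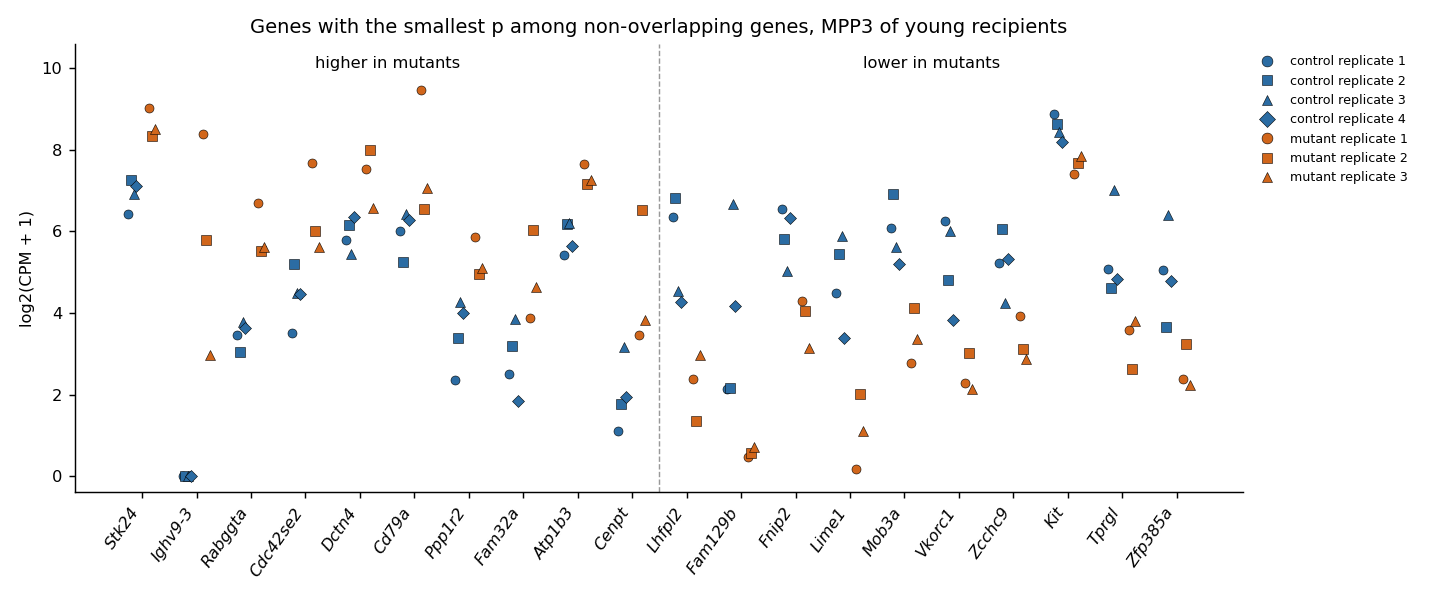
CPM of the 20 leading genes as log2(CPM + 1), with 1 point for each of the 7 MPP3 libraries of young recipients; blue points are the 4 controls, orange points the 3 mutants, and the marker shape gives the replicate. The groups do not overlap in any of the 20 because the genes were picked that way; Stk24 runs from 322 to 523 CPM in mutants and Kit from 169 to 232 CPM.

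With the exception of Cd79a in aged MPP3, the estimates of these genes lay nearer to 0 in aged MPP3 and in LT-HSC than in young MPP3. Of the 10 leading higher genes 5 were above 0 and 4 below 0 in aged MPP3, and Ighv9-3 was not detected there. Of the 10 leading lower genes 9 were below 0 in aged MPP3, though Mob3a was the only 1 with an unadjusted p under 0.05 (log2 change -1.37). The difference between the ages had an unadjusted p under 0.05 in 5 of the higher and 8 of the lower genes. Over all genes 752 of 13933 (5.4%) had such a p for the age difference and 0 passed the adjusted threshold of edgeR (0%), while DESeq2 called 39. Because the genes were picked for a large change in young recipients, a smaller change elsewhere is built into the choice. Against LT-HSC, the cell-type difference had an unadjusted p under 0.05 in 3 of the 10 higher and 6 of the 10 lower genes, beside 1085 of 14850 genes overall (7.31%), of which 0 passed in edgeR (0%) and 113 in DESeq2. Both of these comparisons reuse the 7 libraries, and the LT-HSC come from the same recipients. In limma voom, 804 of the 14850 genes had an unadjusted p under 0.05 for the cell-type difference with the recipient as a random effect. Without the recipient it was 814, and 0 passed the adjusted threshold either way. The estimated correlation between libraries of the same recipient was -0.0038.

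**Figure D2:**
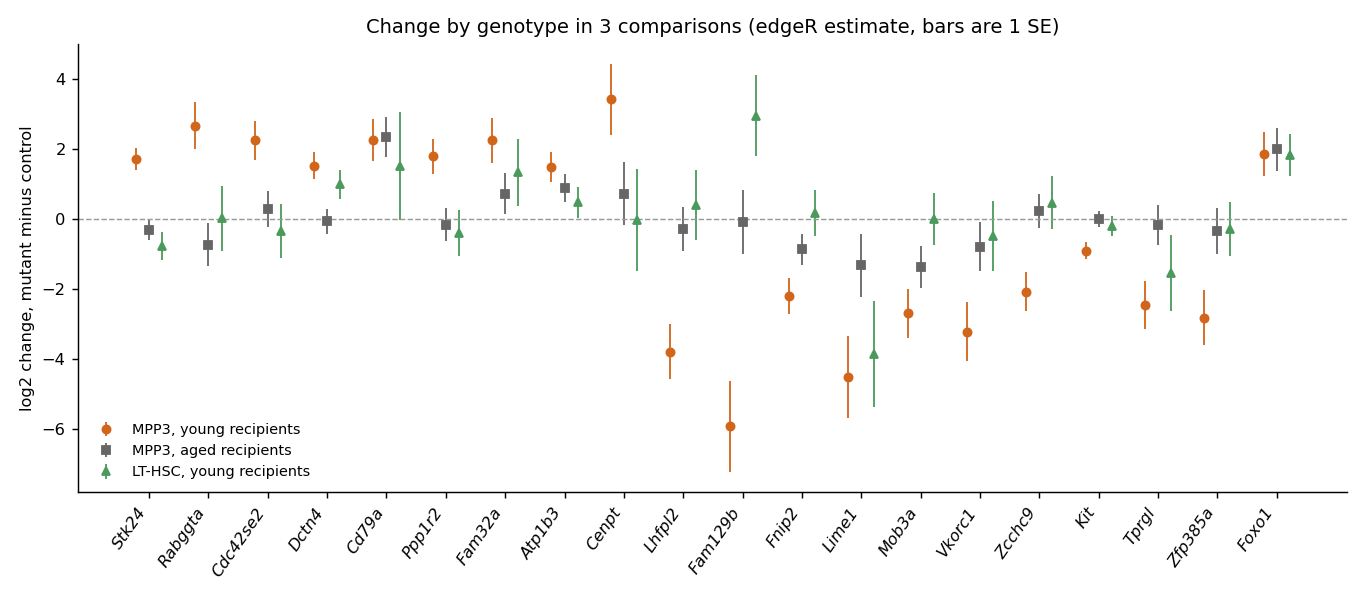
The log2 change from control to mutant (edgeR estimate, bars 1 SE) of 19 leading genes and Foxo1 in MPP3 of young recipients (orange), MPP3 of aged recipients (grey) and LT-HSC of young recipients (green); Ighv9-3 is left out because its control group was at 0. Stk24 stands at 1.71 in young MPP3 against -0.33 and -0.77 in the other sets, while Cd79a and Foxo1 lie above 0 in all 3.

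Lymphoid genes leaned to the higher side. Of 31 tested genes of lymphoid priming (transcription factors, receptors and recombination genes of early lymphoid cells), 26 were higher and 5 lower in mutants, with a median log2 change of 1.05. Over all genes 47.6% were above 0 and the median was -0.04. At an unadjusted p under 0.05, 10 were higher (3.03% of all genes were) and 0 lower, and 0 were called. Without mutant replicate 1, 21 of 31 were higher, the median was 0.21 and 1 gene reached an unadjusted p under 0.05. Without both libraries of over 2% immunoglobulin counts (control replicate 3 and mutant replicate 1, an alternative chosen after seeing the data), 22 of 31 were higher and the median was 0.32. In MPP3 of aged recipients 25 of 31 were higher, with a median of 1.01, where 52.9% of all genes were above 0 (median 0.05). In LT-HSC 15 of 31 were higher, with a median of 0.00, where 44.8% of all genes were above 0 (median -0.09). A gene with no counts in any LT-HSC library, such as Il7r, has an estimate of 0 there, neither higher nor lower. Among the transcription factors 9 of 14 were higher in LT-HSC (median 0.28), and among receptors and recombination genes 6 of 17 (median 0.00).

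By role, 13 of 14 lymphoid transcription factors were higher (median 1.05) and 13 of 17 receptors and recombination genes (median 1.36). Without mutant replicate 1 these were 11 of 14 (median 0.28) and 10 of 17 (median 0.14). Id3, an inhibitor of E-protein transcription factors, was at 0 in all 4 controls and at 27.6, 1.45 and 13.6 CPM in mutants. All 3 mutant libraries held counts, and the difference was at least 131-fold against a floor of 3 counts over the control group (edgeR adjusted p = 0.265). Id3 kept an unadjusted p of 0.000396 without mutant replicate 1, and in aged MPP3 the log2 change was 3.83 (unadjusted p = 0.0101). Foxo1, a factor required for early B-cell development, was at 23.3, 89.99, 27.1 and 43.0 CPM in controls and at 290.1, 82.9 and 119 CPM in mutants. Control replicate 2 lay above mutant replicate 2, so the groups overlapped (log2 change 1.84, SE 0.63, unadjusted p = 0.00869). For Foxo1 the change was 1.14 without mutant replicate 1, 1.98 in aged MPP3 (unadjusted p = 0.00386) and 1.81 in LT-HSC (unadjusted p = 0.00848).

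Ebf1, the factor that commits cells to the B lineage, was at 112, 145, 179 and 136 CPM in controls and at 699.6, 255 and 146 CPM in mutants. Mutant replicate 3 lay inside the control range (log2 change 1.36, SE 0.55; 0.49 without mutant replicate 1). Rag1, a subunit of the recombinase that rearranges antigen-receptor genes, was at 27.5, 5.41, 30.9 and 18.1 CPM against 349.8, 24.3 and 32.0 CPM (log2 change 2.73, SE 0.98; 0.46 without that library). Dntt, the polymerase that adds bases at those joints, was at 9.23, 5.05, 36.4 and 44.3 CPM against 267, 12.2 and 36.9 CPM (log2 change 2.15, SE 0.87; 0.05 without it). In each of these 3 genes mutant replicate 1 stood far above the other libraries. Igll1, a part of the surrogate light chain of pre-B cells, was at 39.0, 26.9, 40.2 and 28.1 CPM against 333, 16.8 and 122 CPM (log2 change 2.23, SE 0.77; 1.04 without it). Cd79a, the signalling chain of the B-cell receptor, was at 64.0, 37.4, 85.2 and 76.5 CPM in controls and at 712, 92.6 and 134 CPM in mutants. All 3 mutants lay above all controls, mutant replicates 2 and 3 by a narrow margin (log2 change 2.25, SE 0.60). In aged MPP3 Cd79a changed by 2.34 on the log2 scale (unadjusted p = 0.000669, edgeR adjusted p = 0.687).

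Markers of other cells moved with these genes. Of 11 B-cell markers 11 were higher (median 1.96), and without mutant replicate 1 it was 7 of 11 (median 0.37). All 11 had counts in every library except mutant replicate 2, where Cr2 and Blk were at 0. Their summed level was 611, 317, 764 and 525 CPM in controls and 4396, 516 and 1034 CPM in mutants. Cd74, the invariant chain of antigen presentation, reached 2279 CPM in mutant replicate 1 against 138 to 551 CPM elsewhere, and H2-Aa, an MHC class II chain, 534 CPM against 47.8 to 122 CPM. Of 13 plasma-cell markers 12 were higher (median 1.001), and without mutant replicate 1 it was 6 of 14 (median -0.23). Their summed level was 6683, 4493, 23082 and 1836 CPM in controls and 47175, 2703 and 11313 CPM in mutants. Iglc2, a light-chain constant region, stood at 2663 CPM in mutant replicate 1 and at 2.44 to 84.5 CPM in the other 6 libraries. Sdc1, the plasma-cell surface protein CD138, was at 16.98, 0 and 24.5 CPM in mutants and under 0.6 CPM in controls. Irf4, a plasma-cell and activation factor, was at 437, 6.04 and 112 CPM in mutants against 16.7 to 145 CPM in controls. Of the 32 lymphoid genes listed 5 are themselves B-cell or plasma-cell markers (Cd79a, Cd79b, Ighm, Irf4 and Pax5). The part of B-lineage or plasma cells in the lymphoid result was not tested, and in bulk libraries more cells of a type cannot be told apart from more RNA per cell.

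T-cell and NK-cell markers summed to 6.36 to 16.2 CPM over all 7 libraries, with 8 to 10 of the 14 at 0 in each. Mature neutrophil markers summed to 81.9 to 694 CPM, the highest in control replicate 4. Erythroblast markers summed to 424, 419, 38.8 and 79.4 CPM in controls and to 644, 36.3 and 12.2 CPM in mutants. Of 9 erythroblast markers 6 were higher (median 0.23), and without mutant replicate 1 it was 0 of 9 (median -3.82). Mast-cell and basophil markers summed to 109 to 206 CPM in controls and 53.5 to 108 CPM in mutants. Among them Cpa3, a mast-cell protease, was at 18.5, 10.2, 38.6 and 45.8 CPM against 0, 6.04 and 3.81 CPM, with no overlap (log2 change -3.10, SE 1.33).

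**Figure D3:**
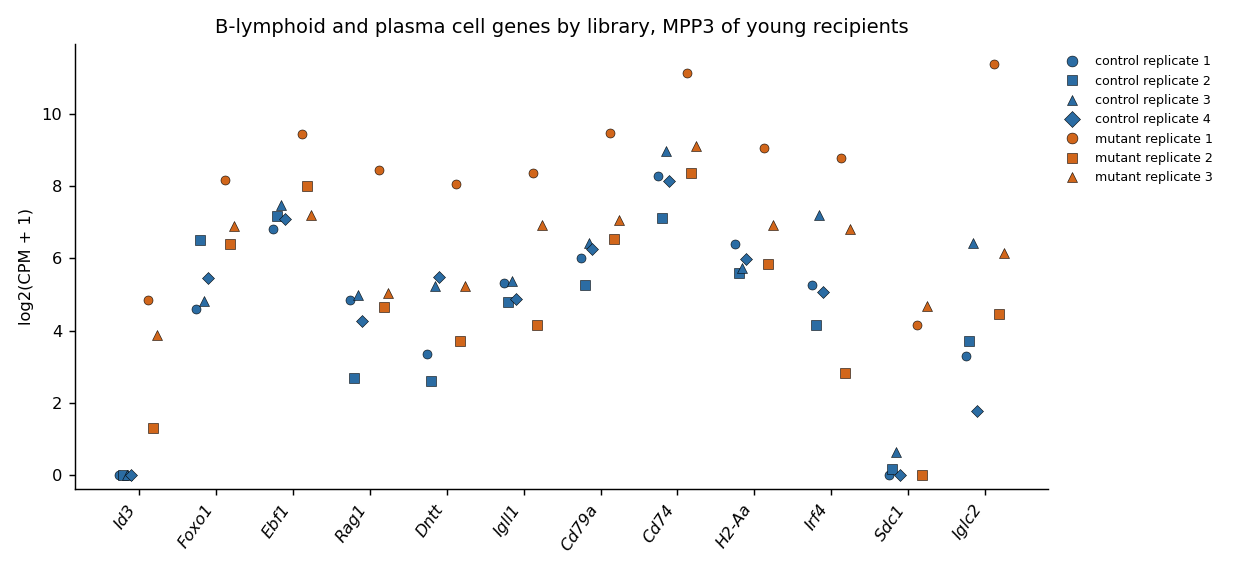
Level of 12 B-lymphoid and plasma-cell genes as log2(CPM + 1) in each of the 7 MPP3 libraries of young recipients, controls in blue and mutants in orange, with the marker shape giving the replicate. Mutant replicate 1 (orange circles) is the highest library in 11 of the 12 genes, such as Cd79a at 712 CPM, while Sdc1 is highest in mutant replicate 3 at 24.5 CPM.

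Granulocyte and monocyte genes split by role. Over the whole list 17 of 38 were higher (median -0.08). The 8 cytokine and chemokine receptors had a median of -1.43, with 7 of 8 lower, 2 of them at an unadjusted p under 0.05 (3.04% of all genes), and without mutant replicate 1 all 8 were lower (median -1.02). Without control replicate 3 as well as mutant replicate 1, 7 of 8 were lower and the median was -0.76. The receptors' median in aged MPP3 was 0.00. The 10 transcription factors had a median of -0.46 and the 20 granule and surface genes one of 0.12. Csf3r, the receptor for the granulocyte growth factor G-CSF, averaged 317 CPM in controls and 164 CPM in mutants (log2 change -0.95). Csf2rb was the 1 receptor above 0 (0.08).

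Ccr2, the receptor that brings monocytes out of the marrow, stood at 79.8, 30.2, 63.1 and 42.0 CPM in controls and at 18.5, 10.3 and 7.498 CPM in mutants. No mutant library reached the lowest control (log2 change -2.15, SE 0.70, unadjusted p = 0.00606, edgeR adjusted p = 0.793). The log2 change was -2.59 without mutant replicate 1 and -1.21 in aged MPP3 (unadjusted p = 0.0607). Il6ra, the interleukin 6 receptor, was at 40.9, 197, 29.3 and 43.7 CPM in controls and at 18.2, 11.001 and 31.0 CPM in mutants, with 1 overlap (log2 change -1.95, SE 0.76). Without control replicate 2 it was -0.92. Irf8, the factor that directs progenitors to monocytes and dendritic cells, was at 291.5, 81.2, 110.1 and 54.7 CPM in controls and at 66.8, 33.0 and 38.1 CPM in mutants. Mutant replicate 1 overlapped with control replicate 4 (log2 change -1.55, SE 0.67, unadjusted p = 0.0335).

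Of 28 megakaryocyte and erythroid genes 9 were higher (median -0.34), 10 of 12 of its transcription factors being lower (median -0.57), and none had an unadjusted p under 0.05. Leaving out 1 library moved this list's median between -0.64 (without mutant replicate 3) and -0.18 (without control replicate 2). Of 37 stem-cell genes 16 were higher (median -0.11). That median depended on single libraries, at -0.96 without mutant replicate 2, -0.79 without mutant replicate 3 and 0.11 without control replicate 2.

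**Figure D4:**
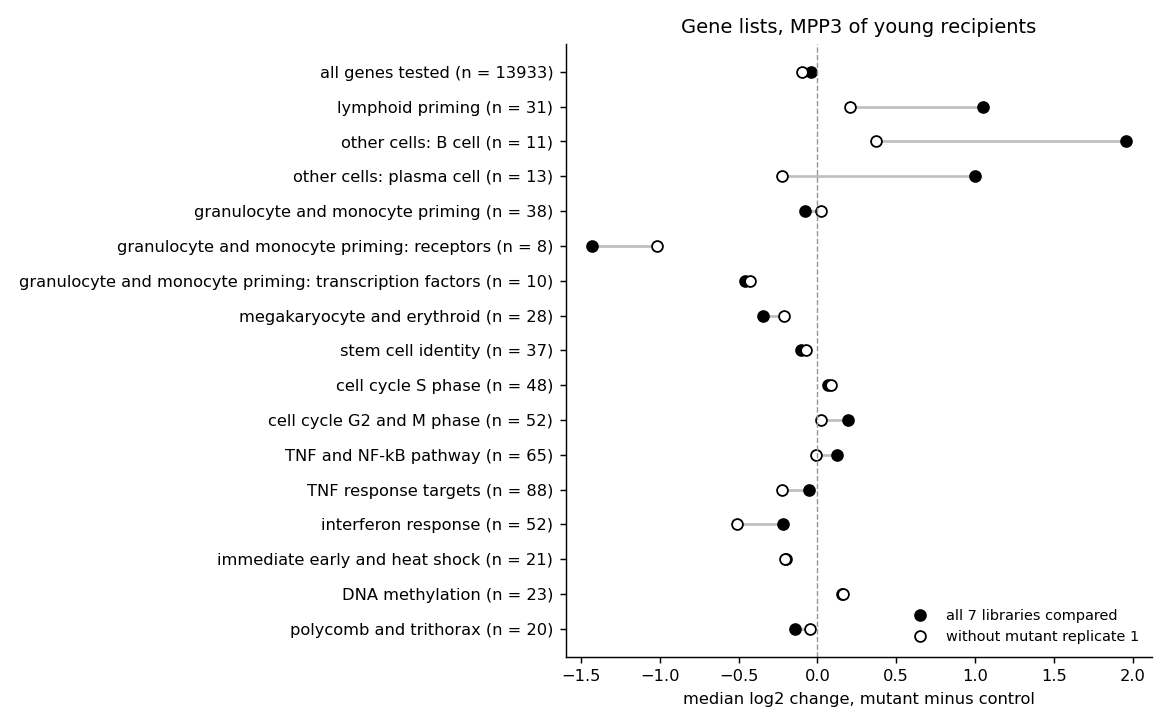
Median log2 change from control to mutant in MPP3 of young recipients for 16 gene lists or parts of lists and for all genes tested, with all 7 libraries (filled) and without mutant replicate 1 (open); n is the number of genes tested with all 7 libraries. Lymphoid priming moves from 1.05 to 0.21 and B-cell markers from 1.96 to 0.37, and the myeloid receptors from -1.43 to -1.02.

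The TNF pathway was near 0. Tnf itself was low, at 0.426, 0, 3.66 and 0.541 CPM in controls and 1.66, 1.69 and 1.78 CPM in mutants (log2 change 0.59, SE 1.25). Its 2 receptors overlapped between the groups. Tnfrsf1a, the death-domain receptor, was at 12.5, 70.7, 28.2 and 62.8 CPM against 30.5, 38.1 and 30.8 CPM (log2 change -0.40, SE 0.65, edgeR adjusted p = 0.986). Tnfrsf1b, the second receptor, was at 39.0, 24.5, 17.7 and 61.9 CPM against 19.0, 41.1 and 24.3 CPM (log2 change -0.35, SE 0.66, edgeR adjusted p = 0.987). Standard errors of this size leave room for a change of either receptor in both directions.

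In the TNF and NF-kB pathway 38 of 65 genes were higher (median 0.13), with 1 higher and 1 lower at an unadjusted p under 0.05. Without mutant replicate 1, 31 of 66 were higher (median -0.01). By role and with all 7 libraries, 3 of 5 ligands, 2 of 9 receptors and 17 of 22 adaptors and kinases were higher. So were 4 of 5 NF-kB subunits, 6 of 12 inhibitors and 6 of 12 cell-death genes. Nfkb1, the p105/p50 subunit, was the 1 lower subunit, at 169, 75.3, 93.7 and 109.6 CPM in controls and 42.6, 73.0 and 30.8 CPM in mutants (log2 change -1.20, SE 0.43, unadjusted p = 0.0116). Its groups did not overlap, by a narrow margin between control replicate 2 and mutant replicate 2. Nfkbie, the inhibitor IkB-epsilon, was at 1.56, 4.09, 1.28 and 5.41 CPM against 19.5, 7.495 and 10.4 CPM (log2 change 2.00, SE 0.76, unadjusted p = 0.0165). In aged MPP3 Nfkbie had a log2 change of -0.97, a difference from young recipients of -2.97 (unadjusted p = 0.0098, edgeR adjusted p = 0.870). Of 88 TNF response genes 41 were higher (median -0.05), 3 higher and 3 lower at an unadjusted p under 0.05. Without mutant replicate 1, 35 of 91 were higher (median -0.22), 2 higher and 6 lower at that level. Over all genes 44.3% were then higher and the median was -0.10. Rhob, a stress-responsive GTPase, was at 31.4, 37.8, 22.5 and 56.2 CPM against 92.5, 63.4 and 112 CPM, with no overlap (log2 change 1.27, SE 0.42). Btg1, an antiproliferative gene of resting lymphocytes, was at 86.4 to 136 CPM in controls and at 367, 213 and 144 CPM in mutants (log2 change 1.07, SE 0.45; 0.64 without mutant replicate 1).

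Of 52 interferon-response genes 22 were higher (median -0.22, and -0.51 without mutant replicate 1). Ifit1, an interferon-induced sensor of foreign RNA, was at 135, 15.9, 6.95 and 2.30 CPM in controls and at 2.81, 2.30 and 4.19 CPM in mutants (log2 change -3.68, SE 1.27). Control replicate 1 carried most of it, and without that library it was -1.43. Samhd1, a dNTP hydrolase, was at 183, 122, 98.6 and 166 CPM against 139, 315 and 344 CPM (log2 change 0.90, SE 0.35; 1.21 without mutant replicate 1).

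Cell-cycle genes were close to 0. Of 48 S-phase genes 26 were higher (median 0.06) and of 52 G2 and M genes 35 (median 0.20, and 28 of 52 with a median of 0.02 without mutant replicate 1). Rpa2, a single-strand DNA binding subunit, was at 3.83, 5.90, 12.1 and 17.7 CPM against 25.9, 36.3 and 25.2 CPM (log2 change 1.56, SE 0.70). Orc1, the largest subunit of the origin recognition complex, had a log2 change of 2.03 (SE 0.76) and of 1.02 without mutant replicate 1. Kif20b, a mitotic kinesin, was at 135, 178, 119 and 88.0 CPM against 250.4, 198 and 199.5 CPM (log2 change 0.73, SE 0.28), and Ect2, which drives the cleavage furrow, at 41.8 to 57.6 CPM against 83.8 to 117 CPM (log2 change 0.92, SE 0.41). Neither gene overlapped between the groups. Among the inhibitors of cycling, Cdkn2d, a p19 inhibitor of cyclin-dependent kinases, was at 97.5, 9.504, 15.4 and 13.4 CPM against 2.94, 6.41 and 6.10 CPM (log2 change -2.72, SE 0.91). Its aged comparison went the other way (1.80, unadjusted p = 0.0345), a difference of 4.51 (unadjusted p = 0.00138, edgeR adjusted p = 0.870). Rbl2, the pocket protein p130 of resting cells, was at 166, 144, 91.5 and 109.6 CPM against 85.0, 54.9 and 71.2 CPM, with no overlap (log2 change -0.86, SE 0.35). Tgfbr2, a receptor for the growth-restraining factor TGF-beta, was at 7.87 to 19.5 CPM against 37.5, 18.01 and 62.6 CPM (log2 change 1.57, SE 0.60).

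Genes of DNA methylation and of polycomb did not lean to one side. Of 23 DNA methylation genes 13 were higher (median 0.15), with 3 of 6 methyltransferases and partners, 5 of 10 demethylation genes and 5 of 7 readers among them. Mbd1, a reader of methylated CG, was at 75.7, 43.1, 24.0 and 19.5 CPM against 20.9, 10.3 and 11.2 CPM (log2 change -1.52, SE 0.70), overlapping through mutant replicate 1. Gadd45b, a stress gene tied to demethylation, was at 12.6, 1.56, 71.9 and 8.26 CPM against 0, 3.51 and 2.54 CPM (log2 change -3.54, SE 1.33), with overlap. Of 20 polycomb and trithorax genes 9 were higher (median -0.14). Suz12, a core subunit of polycomb complex PRC2, was at 176, 181, 136 and 134 CPM against 248, 225 and 229 CPM, with no overlap (log2 change 0.58, SE 0.29). Cbx2, a PRC1 subunit, had a log2 change of -2.27 (SE 1.04) with overlap. Of 18 germline genes that DNA methylation keeps silent 2 had enough counts to be tested, so the list was near 0 in both groups. Heat-shock and immediate-early genes had 9 of 21 higher (median -0.20), and Hspa8, a constitutive chaperone, was at 1156 to 1426 CPM in controls and 937 to 1044 CPM in mutants (log2 change -0.42, SE 0.21).

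A set of 3 neighbours at the end of the sex chromosomes had log2 changes below 0 in young MPP3, aged MPP3 and LT-HSC, and they were chosen after their values were seen. Gm47283 (ENSMUSG00000096768, GRCm38 chrY:90784738-90816464, plus strand) is a predicted gene. It stood at 385, 308, 256 and 365 CPM in controls and at 20.0, 26.2 and 47.4 CPM in mutants, a gap wider than the range of either group. Its log2 change came to -3.39 (SE 0.61, unadjusted p = 2.47e-05, edgeR adjusted p = 0.172), DESeq2 gave an adjusted p of 4.81e-07, and edgeR on the 7 libraries alone gave 0.0354. In aged MPP3 Gm47283 was at 166, 174, 328 and 236 CPM in controls and 97.2, 184, 96.9 and 12.5 CPM in mutants (log2 change -1.21, unadjusted p = 0.0261). In LT-HSC it was at 94.4, 221, 186 and 368 CPM against 17.8 and 58.4 CPM (log2 change -2.51, SE 0.59, unadjusted p = 0.000631).

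Mid1-ps1 (chrY:90753057-90763485) was at 1.28, 7.22, 8.96 and 1.49 CPM in controls and at 0 in all 3 mutants, at least 36.5-fold lower against a floor of 3 counts over the mutant group. Mid1 (chrX:169685199-170005736, plus strand), an E3 ubiquitin ligase that crosses the pseudoautosomal boundary, was at 93.3, 128, 83.4 and 148 CPM against 48.4, 38.6 and 48.7 CPM. All mutants lay below all controls (log2 change -1.32, SE 0.51, unadjusted p = 0.0171). In aged MPP3 the change of Mid1 was -1.17 (unadjusted p = 0.0193) and in LT-HSC -1.59 (unadjusted p = 0.0503). Mid1 and Mid1-ps1 share near-identical sequence, so how reads were divided between them is uncertain. All 7 libraries expressed Xist, the transcript of the inactive X chromosome (3151 to 9755 CPM), and held at most 2 counts of the Y-linked genes Ddx3y, Eif2s3y and Kdm5d. The counts given to the Y copies in these libraries may therefore be reads shared with the X chromosome.

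**Figure D5:**
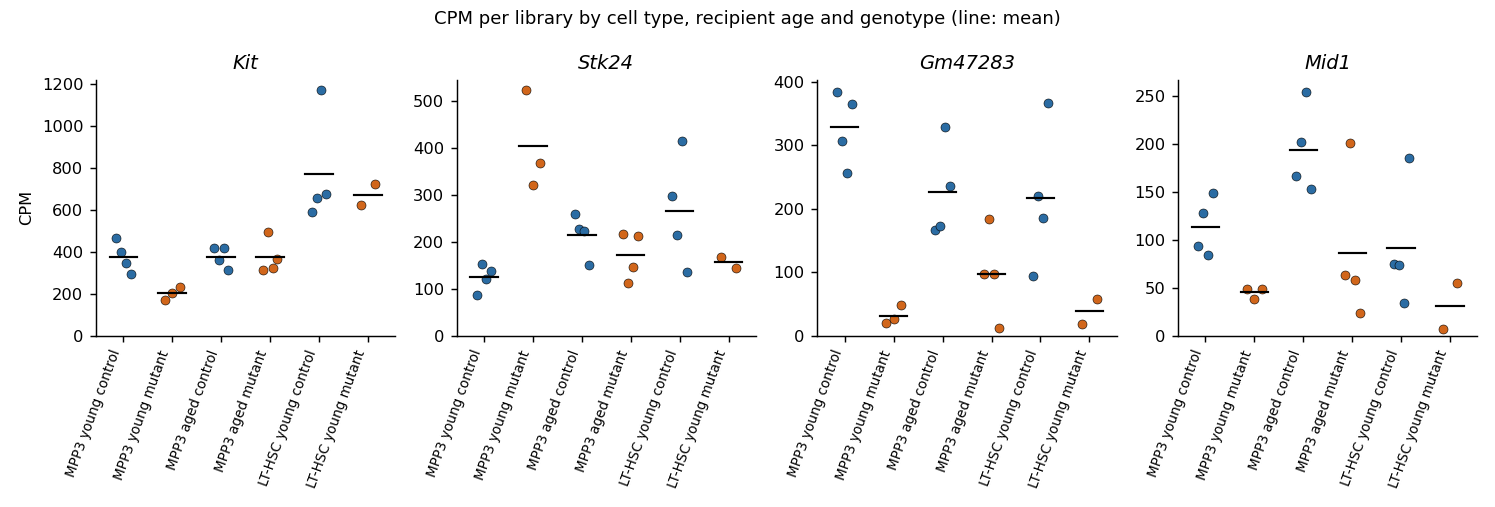
CPM of Kit, Stk24, Gm47283 and Mid1 in each library of 6 groups (blue control, orange mutant, line at the mean), for MPP3 of young recipients, MPP3 of aged recipients and LT-HSC of young recipients; the LT-HSC values come from a separate TMM scaling. Kit and Stk24 separate by genotype in young MPP3, at 169 to 232 against 293 to 467 CPM and 322 to 523 against 85.3 to 153 CPM, while Gm47283 is lower in mutants in all 3 sets.

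Young and aged recipients share no MPP3 library, so their results were set side by side. Both came from a single fit that shares the estimate of each gene's spread, so their p-values are not independent. Of the 422 genes higher in young mutants at an unadjusted p under 0.05, 40 were also higher in aged mutants at that level. That is 9.48% of the 422 and 8.79% of the 455 in aged. Of all genes 3.27% were higher in aged mutants at that level and 5.77% reached it in either direction. Another 17 of the 422 (4.03%) were lower in aged mutants, where 2.5% of all genes were. Of the 424 lower genes 31 were also lower in aged mutants (7.31% of the 424 and 8.88% of the 349), where 2.5% of all genes were. Another 14 of the 424 (3.30%) were higher in aged mutants, where 3.27% of all genes were. The genes higher in both included the immunoglobulin genes Ighg2c, Ighv1-64, Ighv1-76, Ighv1-80, Ighv6-3, Igkv10-96 and Igkv5-48, while Igkv4-72 was higher in young and lower in aged mutants. Others higher in both were Cd74, Cd79a, Dntt, Ebf1, Foxo1, H2-Aa, Id3, Igll1, Rag1, Btg1 and Atp1b3. Rras2, a Ras-related GTPase, was another, at 0.852, 0.241, 1.28 and 1.35 CPM in young controls and 42.6, 2.06 and 12.96 CPM in young mutants (log2 change 4.36, SE 1.14, 3.37 in aged MPP3). Those lower in both included Gm47283, Mid1, Mid1-ps1 and Mob3a. Leaving out mutant replicate 1 took the young log2 changes of Dntt, Rag1, Ebf1, Btg1 and Cd79a to 0.05, 0.46, 0.49, 0.64 and 0.78. Those of Igll1, Foxo1 and Atp1b3 became 1.04, 1.14 and 1.32, and Id3 kept an unadjusted p of 0.000396 in edgeR. The overlap was not counted without that library. Aged mutant MPP3 held 1.67 to 4.79% immunoglobulin counts against 0.223 to 0.704% in aged controls, and the part of this in the shared lymphoid genes was not tested.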

How the data were processed

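The deposited table holds counts per gene for 28 libraries, as whole numbers, so counts were taken as the unit; the submitters' processing notes name RSEM 1.2.12, Bowtie2 2.2.0, SAMtools 0.1.18, edgeR 3.5.3 and GRCm38. RNA was isolated with a micro-scale column kit, per the labels' protocols; strand and annotation are not given in the sources used here. Gene names and coordinates came from GENCODE M21 on GRCm38, and promoter windows from RefSeq.

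The authors' deposited counts of all 15 MPP3 libraries were fitted together in edgeR 4.0.16 (R 4.3.3; filterByExpr, TMM, robust quasi-likelihood test, Benjamini-Hochberg, threshold 0.05), with a coefficient for each group. The age interaction came from the same fit, and the cell-type interaction from the 13 libraries of young recipients. CPM are TMM-scaled. Alternatives used DESeq2 1.42.0, limma 3.58.1, other filters and scalings, sequencing pool, a replicate block and each library left out. The edgeR code was tested on simulated data. Pass conditions were set only at a spread below that of these libraries, so they do not cover recovery at the observed spread.

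Named were Dnmt3a, Tnf and its receptors, the sort genes, up to 10 genes each way with the smallest p among those of at least 10 CPM without overlap (gene models and pseudogenes left out by symbol), and leading list members of at least 5 CPM; list members of larger p are mostly covered by counts, and 1 gene the rule gives is not reported here. Members and lists were chosen with earlier results of these data known.

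Same-numbered control and mutant replicates did not deviate together (correlations 0.02, 0.01 and -0.00), so numbers were not used as pairs. No pair of libraries agreed within sampling noise. Depth was 6298805 to 9179897 counts per library.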

Additional observations from a re-analysis of the deposited data

Results flagged for a closer look

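Among the 4 control libraries, 1 value stood apart from the other 3 by Dixon's criterion in 10 of the 98 quantities examined. The criterion gives about 1 in 20 for normally distributed values. CPM need not be so distributed, and many of these genes were picked by p, so that rate is no yardstick here. Control replicate 3 was the high library for Tnf (3.66 CPM), Fam129b (101 CPM), Tprgl (129 CPM), Iglc2 (84.5 CPM), Irf4 (145 CPM) and Gadd45b (71.9 CPM). Control replicate 1 was the high library for Ifit1 (135 CPM) and Cdkn2d (97.5 CPM), and control replicate 2 for Il6ra (197 CPM). The sum over the 10 genes of the sort list was low in control replicate 4 (875 CPM). The lower values of Fam129b, Tprgl, Ifit1, Cdkn2d, Gadd45b and Il6ra in mutants lean on these single control libraries.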

How the results depend on the processing

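No alternative edgeR setting with all 15 libraries called a gene for genotype in MPP3 of young recipients. DESeq2 called 54 genes for genotype, 39 for the age difference and 113 for the cell-type difference, and edgeR on the 7 libraries alone called 1, Gm47283; leaving out each library called 0 to 1 (Ighv8-12 without mutant replicate 2). Genes at an unadjusted p under 0.05 numbered 1391 for genotype and 1407 for the age difference without a filter, and 520, 435 and 631 (genotype, age, cell type) with a mean of at least 50 counts, where 9896 MPP3 genes were tested. They numbered 496 for genotype on the 7 libraries alone. In limma voom 415 of 675 such genes (61.5%) were higher in mutants, against 422 of 846 (49.9%) in edgeR. With a replicate block the count was 747 for genotype, with 0 called, and 652 for the cell-type difference against 1085 without the block; the cause was not tested.

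Of the named genes, direction turned on leaving out a replicate for Tnfrsf1b (range -0.73 to 0.052, above 0 without control replicate 4). It also turned for Cd48 (-0.76 to 0.23), Flt3 (-0.41 to 0.10), Fcgr3 (-0.18 to 1.02) and Mpo (-0.0098 to 0.23). Il7r ran from -0.09 without mutant replicate 1 to 1.33 without mutant replicate 2, and all of these were far from the threshold. Within the second pool, which holds the same young libraries as the fit without mutant replicate 1, Il7r stood at -0.08. Over all alternatives 1239 values of named genes kept direction and side, 19 passed a threshold they had not passed and 13 turned. Of the list medians 325 stayed within the spread of the mutant libraries and 87 moved beyond it. Genes of few counts, such as Tnf at 0 to 20 counts per library, have wide errors.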
